A study of Mus musculus with 5 samples.

Results

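The collagen chains were taken as every protein-coding row of the count table whose gene symbol is Col, a type number, the letter a and a chain number, which gave 44 genes of the 54636 in the table. Cancer-associated fibroblasts (CAFs) of the mouse were sequenced in culture, with 1 library for each of 5 conditions, after outgrowth from tumors that the labels call subcutaneous rectal tumors. The 3 libraries named untreated PDX CAFs, control siRNA PDX CAFs and Fn1 siRNA PDX CAFs came from mouse fibroblasts of a rectal cancer patient-derived xenograft (PDX) grown in female Nude mice, have the genotype WT, and were left untreated, given a scrambled siRNA or given an siRNA against Fn1, the fibronectin gene. The Cre- control CAFs and the myosin IIA KO CAFs are labelled as cells of the MyosinIIA KO mouse without and with Cre. In that strain (αSMA-CreERT2; R26 mT/mG; myosin IIA fl/fl) Cre is made only in cells that use the αSMA promoter, Myh9 is floxed, and recombination switches a membrane tdTomato reporter to GFP. The labels give 2 µM tamoxifen for both of these cultures. According to the paper, tumors in this strain grew from mouse intestinal tumor organoids placed in the interscapular fat pad. Their hosts had been irradiated and given donor bone marrow, so the rectal label matches the PDX cultures only. All lines were immortalized with SV40 large T-antigen, so each condition is 1 culture of 1 immortalized line.

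Collagen chains wind together into a triple helix, in which glycine recurs at the first place of each Gly-X-Y triplet. Fibrillar collagens pack into the banded fibrils that carry tension, FACIT collagens sit on the surface of fibrils, type IV collagen forms the sheet of basement membranes, and types VI, VIII and X build filaments and lattices. Fibroblasts are the main source of fibrillar collagen in tissue and in tumor stroma. The members fell into 11 fibrillar, 9 FACIT, 9 basement membrane, 9 network and 4 transmembrane chains, and 2 others, Col26a1 and Col28a1. The class of a chain followed known structure and not its level.

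Because the classes follow known structure, the coded helix describes the grouping and is not a separate result. In chains translated from the reference transcripts, the longest unbroken run of Gly-X-Y triplets was 216 to 344 triplets in the 11 fibrillar chains, with a median of 338. Col3a1, the chain of type III collagen, had the longest at 344 triplets, and Col1a1 had 338 and Col1a2 339. Col24a1 at 216 and Col27a1 at 217 stood below the other 9 fibrillar chains. FACIT chains had runs of 32 to 113 triplets, network chains 37 to 87, basement membrane chains 30 to 75 and transmembrane chains 40 to 55. Each of the 9 basement membrane chains had 11 to 27 separate runs of at least 5 triplets, against 2 or 3 in each fibrillar chain. The other classes overlapped these ranges or lay between them, with 2 to 21 runs in FACIT, 3 to 9 in network and 5 to 14 in transmembrane chains. Col28a1 had 17.

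**Figure D1:**
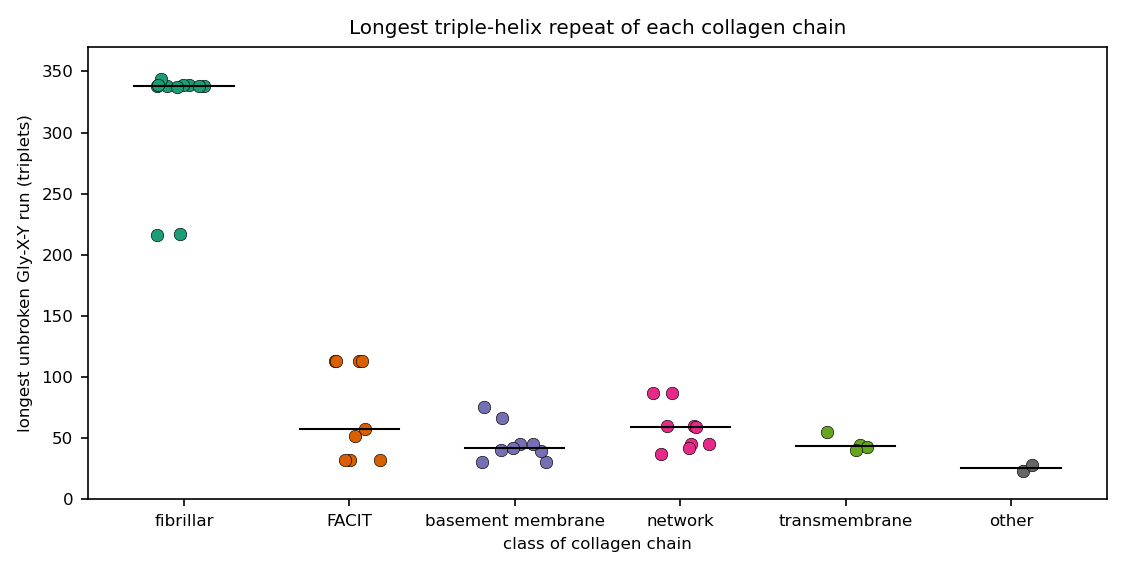
Longest unbroken run of Gly-X-Y triplets (vertical axis, in triplets) of each of the 44 chains by class, with a bar at the class median and points spread sideways for legibility. The fibrillar chains, at 216 to 344 triplets, lie above every chain of the other classes, whose highest value is 113. Classes were assigned by known structure.

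Before the levels, the labels were checked on the targeted genes. Myh9, which encodes the myosin IIA heavy chain, stood at 425 CPM (counts relative to the size of the library, scaled by TMM, the trimmed mean of M values) in the knockout and 2419 CPM without Cre, and Fn1 was at 1282 CPM with Fn1 siRNA and 4778 CPM with control siRNA. Library totals were 22961620 to 26596351 counts, at which 3 counts, the limit that a count of 0 allows, are 0.108 to 0.135 CPM. With 1 library per condition no difference below has a replicate check, no p-value is given, and the 95% intervals cover counting error only. In such bulk samples, fewer cells of a type and less RNA per cell cannot be told apart. Markers of epithelial cells summed to at most 0.832 CPM, and the 4 immune markers to 2.67 to 7.20 CPM, with Ptprc and Cd3e at 0 in all 5 libraries and Cd68 and Csf1r at 1.23 to 5.61 CPM. Adipocyte markers summed to 407 to 556 CPM in the PDX libraries, with Adipoq at 0 in all 3, but to 973 CPM in the Cre- control and 3491 CPM in the knockout.

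Collagen chains took 3.44% of all counts in untreated PDX CAFs (exact Clopper-Pearson 95% interval 3.43% to 3.45%), 3.78% with control siRNA and 4.13% with Fn1 siRNA. The share was 6.99% in Cre- control CAFs and 5.96% in myosin IIA KO CAFs, so both cultures from the floxed strain were above all 3 PDX cultures. Of the 44 chains, 31 reached 1 CPM in at least 1 library, 25 reached 10 CPM, 18 reached 100 CPM and 11 reached 1000 CPM. Between 27 and 30 chains were at 1 CPM or more in any single library. Fibrillar chains made up 71.7% to 75.7% of the collagen counts, and Col1a1, Col1a2 and Col3a1 alone 61.4% to 66.6%.

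Among fibrillar chains, Col1a1 (ENSMUSG00000001506, mm10 chromosome 11, 94936224 to 94953042), which encodes the α1 chain of type I collagen, was the highest in every library. In the PDX cultures Col1a1 was at 10768 CPM untreated, 13805 CPM after control siRNA and 15862 CPM after Fn1 siRNA, and in the floxed-strain cultures at 20909 CPM without Cre and 16058 CPM in the knockout. Its partner Col1a2 (chromosome 6, 4504814 to 4541544) was at 7138, 7480, 8095, 14183 and 11521 CPM in the same order of libraries. Both type I chains were highest in Cre- control CAFs. Col3a1 (ENSMUSG00000026043, chromosome 1, 45311538 to 45349706) encodes type III collagen, which mixes with type I in fibrils of skin and vessels. It was at 2632 CPM untreated, 2677 CPM after control siRNA, 3125 CPM after Fn1 siRNA, 11573 CPM without Cre and 7810 CPM in the knockout. The 2 cultures from the floxed strain thus lay well above the 3 from PDX. Per kilobase of gene length Col1a1 ranked first of the 44 in all libraries, while Col3a1 ranked 2 in Cre- control CAFs and 4 in the others.

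Type V collagen starts fibrils and limits their width, and its chains came next. Over the libraries in the order just given, Col5a2 was at 1881, 2398, 2878, 3436 and 3101 CPM. Col5a1 was at 1046, 1253, 1456, 2396 and 1789 CPM, again highest without Cre. Col5a3 varied least among the 3, at 415, 490, 500, 495 and 391 CPM. The fibrillar chains best known from cartilage were far lower. Col2a1 was at 35.4, 50.6, 48.4, 53.5 and 80.9 CPM, highest in myosin IIA KO CAFs. Col11a1, a type XI chain that is also known as a CAF marker, was at 43.4, 20.7, 34.2, 16.5 and 10.6 CPM, highest in untreated PDX CAFs and lowest in the knockout. Col11a2 was at 5.04, 10.1, 9.64, 7.46 and 8.25 CPM, and Col27a1 at 14.3, 11.2, 13.5, 21.7 and 24.7 CPM. Beside these chains, the chondrocyte markers Acan and Hapln1 had no count in any library, and Sox9, the transcription factor of chondrocytes and of other cells, was at 31.1 to 204 CPM. The other listed chondrocyte markers were Matn3 at 0.805 to 3.10 CPM, Comp at 0.169 to 1.45 CPM and Matn1 at up to 0.145 CPM. Matn3 was highest in Cre- control CAFs, and Comp and Matn1 were highest in the knockout.

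FACIT chains were carried by a pair of genes. Col12a1, whose product cross-bridges type I fibrils, was at 676 CPM untreated, 640 CPM after control siRNA, 798 CPM after Fn1 siRNA, 1094 CPM without Cre and 1256 CPM in the knockout. Col16a1 was at 414, 411, 419, 431 and 361 CPM, with little spread between libraries. Col14a1, another chain found on mature fibrils, was at 0.296 to 0.50 CPM in the PDX libraries but at 7.84 CPM without Cre and 11.7 CPM in the knockout. The other 6 FACIT chains stayed below 2 CPM in every library.

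Basement membrane chains were led by type IV. Col4a1, one of the chains present in nearly all basement membranes, was at 1194 CPM untreated, 1910 CPM after control siRNA, 2138 CPM after Fn1 siRNA, 1819 CPM without Cre and 2155 CPM in the knockout. Col4a2, which joins it in the same trimer, was at 798, 1224, 1394, 1216 and 1409 CPM. Untreated PDX CAFs were the lowest library for both. Col4a5, a chain of more restricted basement membranes, was at 245, 270, 309, 141 and 157 CPM, lower in the floxed-strain cultures than in all PDX cultures. Col15a1 encodes a collagen that links basement membrane to the matrix beneath, and was at 89.1, 168, 166, 563 and 763 CPM. Col18a1, the source of the fragment endostatin, was at 145, 325, 304, 415 and 499 CPM. Both lay above the PDX range in the floxed-strain cultures. The opposite held for Col7a1, the anchoring fibril chain of skin, at 45.3, 53.5, 53.2, 10.6 and 9.84 CPM.

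Among network chains, Col6a1, Col6a2 and Col6a3, which encode the main chains of the type VI beaded filaments around cells, were the abundant ones. Col6a1 was at 2447, 2128, 2297, 4150 and 3561 CPM, in the order untreated, control siRNA, Fn1 siRNA, Cre- control and myosin IIA KO. Col6a2 was at 1621, 1496, 1533, 3125 and 2646 CPM, and Col6a3 at 1564, 1672, 1711, 2881 and 2344 CPM. All 3 were highest in Cre- control CAFs, followed by the knockout. Type VIII collagen forms lattices in vessel walls and in the cornea. Of the network chains compared, the type VIII chains differed most between origins. Col8a1 was at 206 CPM untreated, 209 CPM after control siRNA, 233 CPM after Fn1 siRNA, 994 CPM without Cre and 591 CPM in the knockout. Col8a2 was at 3.64, 6.65, 9.78, 169 and 214 CPM.

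The remaining chains were low. Col28a1, of no listed class, was at 2.12, 1.19, 1.71, 6.70 and 15.3 CPM, highest in the knockout. Another 6 chains peaked between 1 and 10 CPM, namely Col4a6 at up to 4.32 CPM, the transmembrane chain Col23a1 at 2.42, the hypertrophic cartilage chain Col10a1 at 2.06, Col20a1 at 1.70, Col9a3 at 1.23 and Col24a1 at 1.02 CPM. The other 13 stayed under 1 CPM throughout, the highest being Col17a1, a hemidesmosome chain of epithelia, at 0.692 CPM with control siRNA. Col9a1 and Col13a1 had no count in any library. The kidney type IV chains Col4a3 and Col4a4 peaked at 0.180 and 0.423 CPM, and Col6a4, Col6a5 and Col6a6 at 0.450, 0.339 and 0.0383 CPM.

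**Figure D2:**
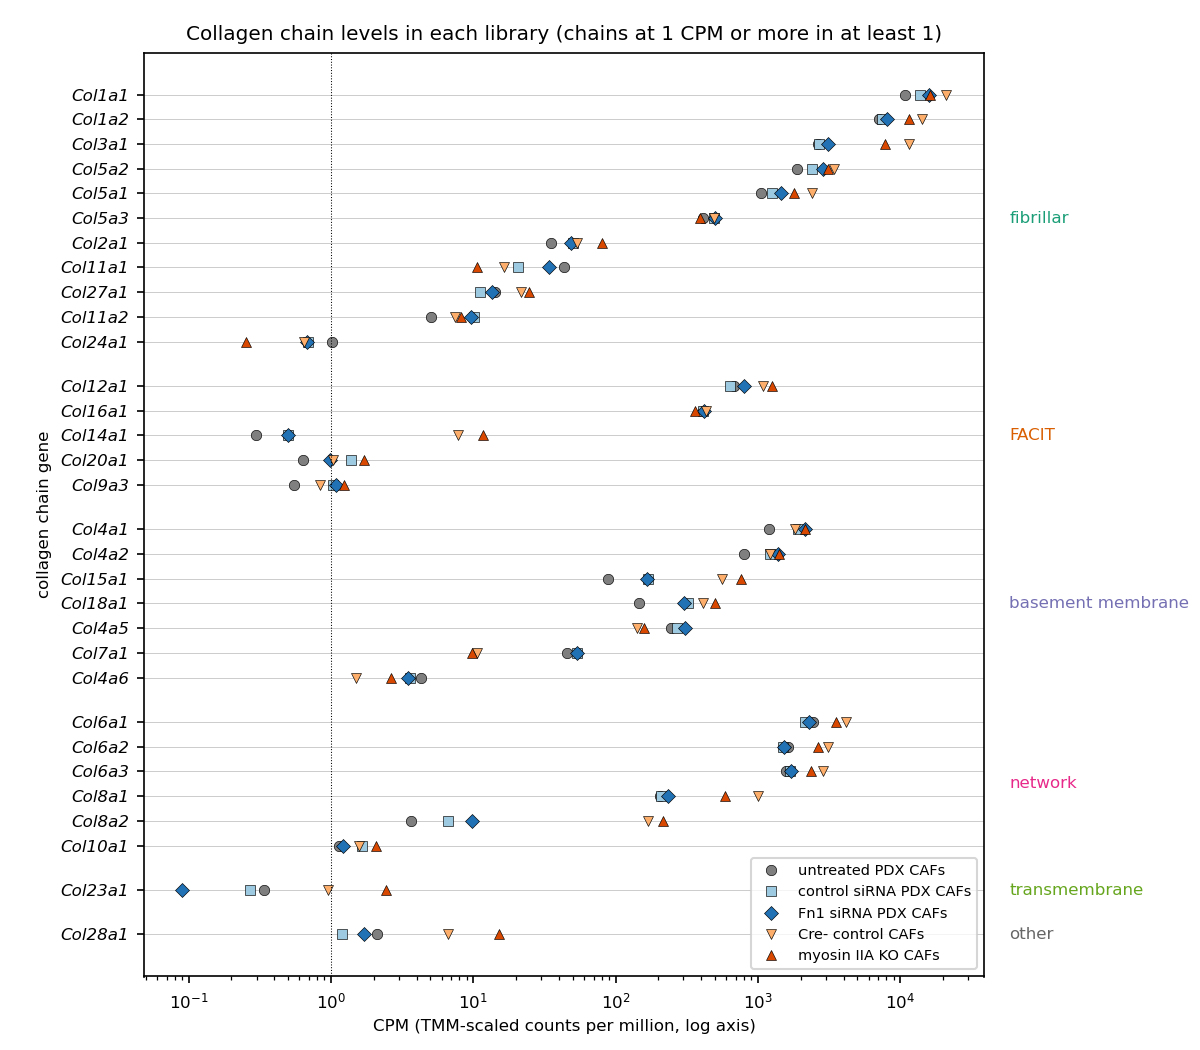
Level of the 31 collagen chains that reached 1 CPM in at least 1 library, by class, on a log axis of CPM, with 1 symbol for each of the 5 libraries and a dotted line at 1 CPM; a library without a count of a chain has no symbol there. Col1a1 leads at 10768 to 20909 CPM, and Col8a2 and Col14a1 show the widest gaps between PDX and floxed-strain cultures.

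Next, myosin IIA KO CAFs were set against Cre- control CAFs, over genes at 1 CPM or more in either. Each is 1 line, so loss of myosin IIA cannot be told apart from a difference between lines or donor mice. Most fibrillar chains and the type VI chains Col6a1, Col6a2 and Col6a3 were lower in the knockout, while type IV, XV and XVIII chains were higher, all by less than 2-fold. Of 44 members 30 were compared, and 2 were over 2-fold higher, Col23a1 (log2 ratio 1.32, 95% interval 0.66 to 2.07, from 67 against 25 counts) and Col28a1 (1.19, 0.93 to 1.45), beside 3.29% of 13326 genes. None was over 2-fold lower, beside 1.7% of all genes. No member had its whole interval beyond 2-fold in either direction, where 1.67% of genes did so upward and 0.623% downward. Intervals wholly above 0 were seen for 14 members, against 24.9% of all genes, and wholly below 0 for 12, against 26.7%. Such an interval narrows as counts rise, so abundant chains exclude 0 at smaller ratios than scarce genes. These shares are therefore not like for like.

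By class, 7 of the 10 fibrillar chains compared had intervals wholly below 0 in the knockout, and their median log2 ratio was -0.32. Col3a1 was at -0.57 (-0.58 to -0.56), Col5a1 at -0.42, Col1a1 at -0.38 (-0.39 to -0.38), Col5a3 at -0.34, Col1a2 at -0.30, Col5a2 at -0.15 and Col11a1 at -0.63 (-0.85 to -0.41). Col2a1 went the other way at 0.60 (0.50 to 0.69), as did Col27a1 at 0.19. Of the 6 network chains compared, 4 lay below 0, namely Col6a1 at -0.22, Col6a2 at -0.24, Col6a3 at -0.30 and Col8a1 at -0.75 (-0.78 to -0.72). Col8a2 was instead higher at 0.34 (0.29 to 0.40), so the partner chains of type VIII differed in opposite directions. In the basement membrane class 6 of 7 intervals lay above 0 and none below, with a median of 0.24. Col15a1 was at 0.44 (0.41 to 0.47), Col18a1 at 0.27, Col4a1 at 0.24 (0.23 to 0.26), Col4a2 at 0.21, Col4a5 at 0.16 and the scarce Col4a6 at 0.82 (0.24 to 1.42), while Col7a1 at -0.11 held 0 in its interval. Of the 5 FACIT chains compared 4 were above 0, with a median of 0.54, namely Col12a1 at 0.20, Col14a1 at 0.57 and the scarce Col20a1 at 0.71 (0.01 to 1.46) and Col9a3 at 0.54 (-0.27 to 1.39), and Col16a1 was below at -0.26.

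The median over the 30 members was 0.17, beside -0.0055 over all genes compared, and it turned to -0.13 over the 24 members at 10 CPM or more, so it gives no direction for the family. Adipocyte markers moved with this comparison, with 7 of 8 over 2-fold higher in the knockout and Adipoq at 159 against 18.9 CPM. The summed level of the 3 myofibroblast markers was 6066 CPM in the knockout and 12026 CPM in the control, with Acta2, the αSMA gene, at 3383 and 7727 CPM. The 3 tendon markers summed to 5.50 and 24.6 CPM but went both ways, with Tnmd at 3.04 and 22.2 CPM, Scx also over 2-fold lower and Mkx over 2-fold higher at 1.01. The part of these in the collagen ratios was not tested.

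Fibronectin knockdown was examined in Fn1 siRNA PDX CAFs against control siRNA PDX CAFs. No collagen chain differed by 2-fold, and most of the abundant fibrillar chains were slightly higher with Fn1 siRNA. Of 28 members compared, 0 were over 2-fold higher or lower, beside 0.523% and 0.377% of 13009 genes, and the shares with whole intervals beyond 2-fold were 0.0769% and 0.0384%. Intervals lay wholly above 0 for 16 members and wholly below for 1, beside 14.5% and 13.2% of all genes. These shares depend on depth, and the abundant Col6a2 and Col6a3 were above 0 at a ratio of only 0.02. The median was 0.099 over members and -0.0029 over all genes. Col11a1 differed most, at 0.71 (0.55 to 0.88), from 20.7 to 34.2 CPM, followed by Col8a2 at 0.54 (0.25 to 0.84). Of 10 fibrillar chains 7 had intervals above 0, among them Col5a2 at 0.25, Col3a1 at 0.21 (0.19 to 0.22), Col5a1 at 0.20, Col1a1 at 0.19 (0.18 to 0.19) and Col1a2 at 0.10. Col12a1 was at 0.31 and Col4a1 at 0.15 (0.13 to 0.17). Col18a1 was the chain below 0, at -0.11 (-0.16 to -0.06). For Col6a2, Col6a3, Col5a3 and Col16a1 the ratio lay within 0.03 of 0 and its sign changed under another scaling. Fn1 itself was at -1.91, and myofibroblast markers summed to 7102 CPM against 6064 CPM, which was not tested as a part of these ratios.

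The control siRNA library was also set against untreated PDX CAFs, which differ in transfection alone as far as the labels say. These share the control siRNA library with the knockdown and the untreated library with the comparison of origins below, so the ratios are not independent. Basement membrane chains were higher after the control siRNA and Col11a1 was lower. Of 29 members compared, 2 were over 2-fold higher, Col18a1 at 1.16 (1.11 to 1.22) and Col20a1 at 1.10 (0.22 to 2.10, from 36 against 15 counts), beside 2.98% of 13125 genes. Col11a1, at -1.07 (-1.22 to -0.92), was the 1 member over 2-fold lower, beside 2.74%. With whole intervals beyond 2-fold the member counts were 1 higher (Col18a1) and 0 lower, beside 1.31% and 0.846%. Intervals were wholly above 0 for 17 members and below 0 for 6, beside 29.3% and 30.5% of all genes, shares that again depend on depth. Of 7 basement membrane chains 6 lay above 0, with Col15a1 at 0.92, Col4a1 at 0.68 (0.66 to 0.70), Col4a2 at 0.62 and Col4a5 at 0.14, and a class median of 0.62. Col1a1 was at 0.36 and Col5a2 at 0.35, while Col6a1 at -0.20 and Col6a2 at -0.12 were below 0. Ratios of Col1a2, Col3a1, Col8a1 and Col16a1, all within 0.07 of 0, changed sign under another scaling. The median was 0.24 over members and -0.014 over all genes. For chains that reached 10 CPM, these ratios were set beside those between myosin IIA KO and Cre- control CAFs. Ratios between these 2 control cultures were farther from 0 for Col4a1, Col4a2, Col5a2, Col7a1, Col8a2, Col11a1, Col11a2, Col15a1, Col18a1 and Col27a1. They were nearer to 0 for Col1a1, Col1a2, Col2a1, Col3a1, Col4a5, Col5a1, Col5a3, Col6a1, Col6a2, Col6a3, Col8a1, Col12a1, Col16a1 and Col28a1. For Col1a1, Col4a5 and Col6a1 the distances were nearly equal, and Col14a1 was not compared after control siRNA. Myofibroblast markers summed to 6064 CPM after control siRNA and 2461 CPM before, and their part was not tested.

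**Figure D3:**
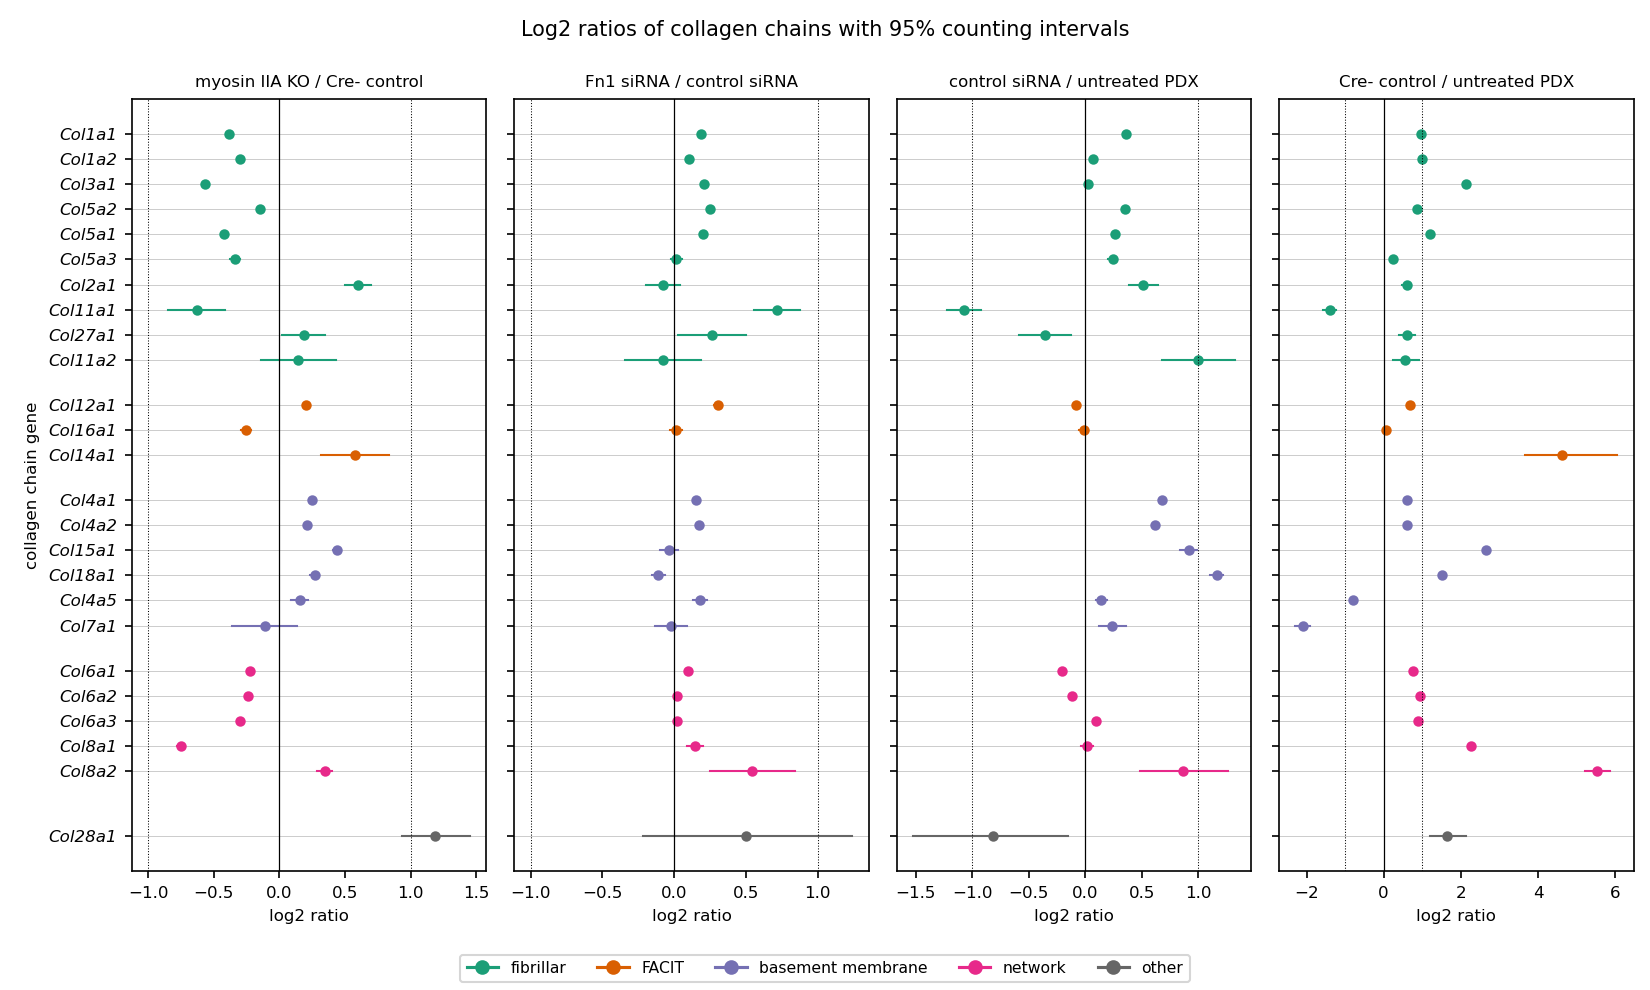
Log2 ratios (points) with 95% counting intervals (lines) of the 25 collagen chains that reached 10 CPM in any library, coloured by class, in 4 comparisons of 1 library with 1 library, with dotted lines at 2-fold; chains under 1 CPM in both libraries are left out and the horizontal scales differ. In the knockout panel Col1a1, Col3a1 and Col5a1 lie at -0.38 to -0.57 and Col4a1, Col15a1 and Col18a1 at 0.24 to 0.44, while in the origin panel Col8a2 reaches 5.53.

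The differences between cultures of different origin were the widest. Cre- control CAFs, set against untreated PDX CAFs, differ in strain, tumor, graft site, host irradiation, tamoxifen and culture, which cannot be told apart. This comparison shares the Cre- library with the knockout comparison. Of 29 members 8 were over 2-fold higher, beside 10.9% of 13537 genes, and 3 over 2-fold lower, beside 8.43%. All 8 kept their whole interval beyond 2-fold, as 7.17% of genes did, and 2 of the 3 lower ones did, as 5.89% of genes did. Intervals were wholly above 0 for 22 members and below 0 for 4, beside 34.5% and 39.2% of genes, shares that again depend on depth. The median was 0.69 over members and -0.030 over all genes. Col8a2 differed most at 5.53 (5.23 to 5.86), or 46.1-fold, from 86 to 4410 counts. Col14a1 followed at 4.63 (3.66 to 6.06, from 7 to 205 counts), then Col15a1 at 2.66 (2.59 to 2.73), Col8a1 at 2.27 (2.22 to 2.31), Col3a1 at 2.14 (2.12 to 2.15), Col28a1 at 1.65, Col18a1 at 1.51 and Col5a1 at 1.20. Lower in Cre- control CAFs were Col7a1 at -2.09 (-2.29 to -1.90), Col4a6 at -1.52 (-2.10 to -0.99) and Col11a1 at -1.40. The type I chains were just under the threshold, Col1a1 at 0.96 and Col1a2 at 0.99, and Col1a2 passed it at 1.01 with DESeq2 size factors. Col16a1 was nearly level at 0.06. All 3 myofibroblast and all 3 compared chondrocyte markers were over 2-fold higher in Cre- control CAFs, as were 6 of 7 adipocyte markers. General fibroblast markers passed too in 4 of 6 cases, namely Dcn at 3.76, Lum at 2.81, Thy1 at 1.44 and Pdgfrb at 1.09. Pdgfra at 0.63 and S100a4 at -0.96 stayed within 2-fold. These 6 summed to 944 CPM untreated and 2077 CPM without Cre, and the untreated levels of Dcn and Lum were only 3.51 and 0.381 CPM. The part of these markers was not tested.

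The sequence just upstream of the start is shown for the 4 chains with the largest origin ratios among those that reached 100 CPM. These are the 250 bases before the RefSeq start on GRCm38.p6 (the assembly named mm10), 5′ to 3′ on the strand of the gene, with capitals at matches to TATAAA (the TATA box), to CCAAT (the CCAAT box) and to GGGCGG (a GC box) on either strand, where overlapping matches run together.
Col8a2 (chr4:126286544-126286793, + strand): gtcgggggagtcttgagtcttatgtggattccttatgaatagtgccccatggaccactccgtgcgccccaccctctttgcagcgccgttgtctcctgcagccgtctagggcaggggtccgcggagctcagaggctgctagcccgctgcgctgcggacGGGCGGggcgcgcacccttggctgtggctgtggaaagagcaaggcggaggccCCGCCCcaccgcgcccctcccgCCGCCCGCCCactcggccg
Col8a1 (chr16:57754738-57754987, - strand): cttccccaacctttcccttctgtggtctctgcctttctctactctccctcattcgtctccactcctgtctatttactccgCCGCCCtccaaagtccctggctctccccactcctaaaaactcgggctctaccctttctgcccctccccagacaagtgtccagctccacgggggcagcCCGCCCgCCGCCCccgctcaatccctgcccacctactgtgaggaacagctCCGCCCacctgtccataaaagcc
Col15a1 (chr4:47207762-47208011, + strand): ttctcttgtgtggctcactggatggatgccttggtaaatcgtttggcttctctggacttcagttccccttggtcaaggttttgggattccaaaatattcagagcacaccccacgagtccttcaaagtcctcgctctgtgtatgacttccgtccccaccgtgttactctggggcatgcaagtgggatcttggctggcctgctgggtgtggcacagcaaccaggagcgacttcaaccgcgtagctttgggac
Col3a1 (chr1:45311288-45311537, + strand): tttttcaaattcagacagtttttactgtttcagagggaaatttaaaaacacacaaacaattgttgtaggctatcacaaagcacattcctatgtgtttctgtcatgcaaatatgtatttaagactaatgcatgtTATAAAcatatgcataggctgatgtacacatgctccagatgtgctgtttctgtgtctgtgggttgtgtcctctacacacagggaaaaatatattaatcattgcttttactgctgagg
Both type VIII windows hold 4 matches to GGGCGG and none to the other motifs, the Col3a1 window holds 1 TATAAA and none of the others, and the Col15a1 window holds none of the 3. Of the 38 windows found for 35 of the 44 members, 57.9% hold GGGCGG against 32.7% of all 32851 windows of this length. TATAAA is in 13.2% of member windows and 12.4% of all, and CCAAT in 34.2% and 33.8%. A match is a string of letters and not a binding site.

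Chains that share a trimer were then compared as ratios within each library, per kilobase of the gene length in the table. Col4a1 to Col4a2 stayed nearly fixed, at 1.33 in untreated PDX CAFs, 1.38 with control siRNA, 1.36 with Fn1 siRNA, 1.33 in Cre- control CAFs and 1.36 in myosin IIA KO CAFs, a spread of 1.04-fold. These genes lie head to head on chromosome 8, Col4a1 on the minus strand and Col4a2 on the plus strand, and their first exons overlap by 22 bases, shown on the plus strand with a match to GGGCGG in capitals.
Col4a1 and Col4a2 overlap (chr8:11312805-11312826): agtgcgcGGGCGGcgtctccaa
The overlap covers 0.295% of the exon bases of Col4a1. The related pairs Col4a3 and Col4a4, at a gap of 71 bases, and Col4a5 and Col4a6, at 1308 bases, are also head to head. Col4a5 to Col4a6 ran from 67.2 in untreated PDX CAFs (95% interval 55.3 to 82.6) to 112 in Cre- control CAFs (82.0 to 158). These intervals overlap, with Col4a6 at 39 to 102 counts over the libraries.

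The abundant type VI chains were also steady, with Col6a1 to Col6a2 at 2.52 to 2.87 and Col6a3 to Col6a1 at 0.234 to 0.288. Col1a1 to Col1a2 was 2.86 in untreated PDX CAFs, 3.49 with control siRNA, 3.71 with Fn1 siRNA, 2.79 in Cre- control CAFs and 2.64 in myosin IIA KO CAFs. The common type I trimer has a pair of α1 chains to 1 α2 chain, but this ratio depended on the length used and was 1.32 to 1.85 per coding length. Col5a1 to Col5a2 was 0.572 to 0.788, highest in Cre- control CAFs. Type VIII was the exception, with Col8a1 to Col8a2 at 32.5 in untreated PDX CAFs (95% interval 26.2 to 40.7), 18.0 with control siRNA, 13.7 with Fn1 siRNA, 3.38 in Cre- control CAFs (3.27 to 3.49) and 1.58 in myosin IIA KO CAFs (1.53 to 1.63). That is a spread of 20.5-fold, which no choice of length changes.

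**Figure D4:**
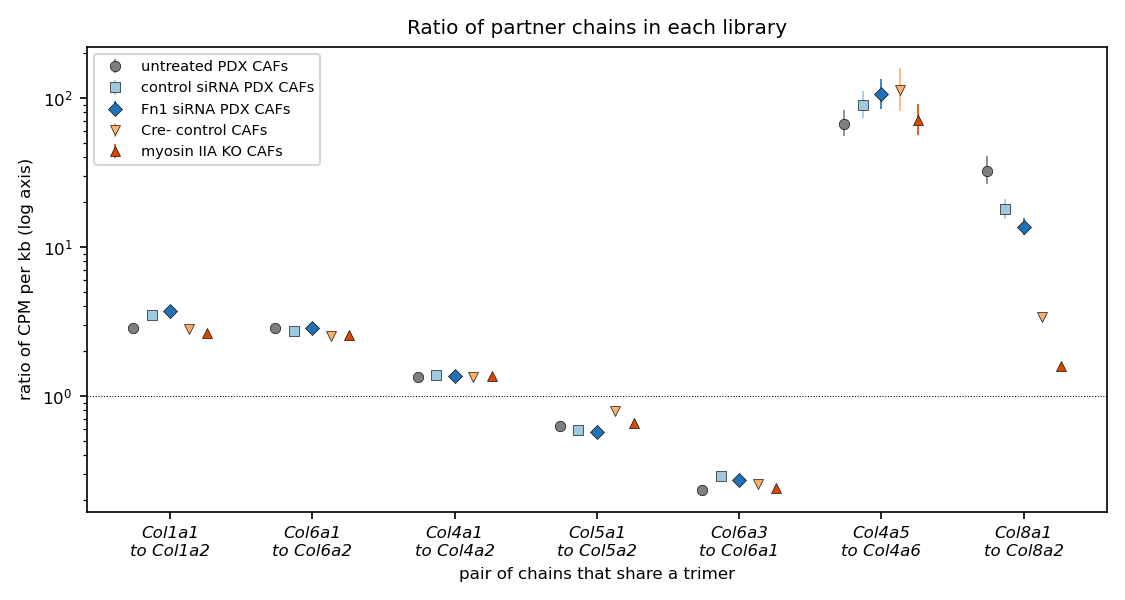
Ratio of CPM per kilobase of the first to the second chain (log axis) for 7 pairs of chains that share a trimer, with 1 symbol per library and 95% counting intervals. Col4a1 to Col4a2 stays at 1.33 to 1.38 in all 5 libraries, while Col8a1 to Col8a2 runs from 32.5 in untreated PDX CAFs to 1.58 in myosin IIA KO CAFs.

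The genes that fold, cut and bind collagen were followed as lists beside the chains. Of all genes compared, 3.29% were over 2-fold higher and 1.7% lower in the knockout, and 0.523% and 0.377% in the knockdown. These shares were 2.98% and 2.74% after control siRNA, and 10.9% and 8.43% between origins. Of 21 genes of folding and secretion 20 were compared in each comparison, and 1 passed 2-fold, Plod2, a lysyl hydroxylase, at -1.04 in the knockout (225 to 109 CPM). The collagen chaperone Serpinh1 was at 3886 CPM without Cre and 2717 CPM in the knockout, a log2 ratio of -0.52 (-0.53 to -0.50), and P4hb, the shared subunit of prolyl 4-hydroxylase, was at -0.27. Plod3, another lysyl hydroxylase, was at 0.10. The median of this list was -0.22 in the knockout, 0.099 in the knockdown, -0.030 after control siRNA and 0.29 between origins.

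Of the 13 genes that process and cross-link procollagen, 11 were compared in the knockout. Over 2-fold higher was 1, Pcolce2, an enhancer of C-propeptide cleavage, at 1.30, beside 3.29% of all genes. Over 2-fold lower was 1, the N-proteinase gene Adamts14 at -1.50, beside 1.7%. The crosslinking enzyme gene Lox was at 4191 and 2903 CPM, a log2 ratio of -0.53 (-0.54 to -0.52), Loxl1 was at -0.32, and Pcolce, the main enhancer, at 0.07. None of 12 passed 2-fold in the knockdown. Of 12 compared after control siRNA, Tll1, a C-proteinase gene, was at 2.40 and the scarce Adamts3 at -1.10 (3.56 to 1.65 CPM). Of 12 compared between origins, Adamts2, which removes the N-propeptide of types I and III, was higher at 1.83, beside 10.9% of all genes. Adamts3 at -3.64 (3.56 to 0.268 CPM), Pcolce2 at -2.40, Loxl4 at -2.24 and Adamts14 at -2.16 were lower, beside 8.43%.

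Of 10 receptor and uptake genes, 8 were compared in the knockout and 9 in the knockdown, and none passed 2-fold. Of 9 compared after control siRNA, Itga2 passed at 1.10. Between origins 8 were compared. The collagen-binding integrin genes Itga1 at 4.18 (10.5 to 191 CPM) and Itga11 at 3.63 (12.7 to 158 CPM) were higher, beside 10.9% of all genes. The scarce Itga10 was also higher at 1.34 (0.847 to 2.18 CPM). Adgrg1, a receptor for type III collagen, was lower at -1.12, beside 8.43%. Itgb1, the shared β1 subunit, was at 1328 to 2067 CPM over the libraries, the uptake receptor gene Mrc2 at 395 to 589 CPM and Ddr2, a kinase receptor for fibrillar collagen, at 265 to 406 CPM. Of 10 genes of fibril-binding proteins, Prelp at 1.38 and Fmod at 1.26 were over 2-fold higher in the knockout. Lum, a fibril-spacing proteoglycan, was scarce and over 2-fold lower at -1.09 (2.79 to 1.30 CPM). Of 8 compared in the knockdown Fn1 alone passed, and of 8 after control siRNA Fmod at 2.05 and Thbs1 at 1.26 did. Of 10 between origins 5 were higher, led by Prelp at 8.11, and Thbs2 was lower at -1.35. Bgn, at 3132 to 7307 CPM, and Sparc, a collagen-binding matricellular protein, at 3980 to 6979 CPM, were with Fn1 the highest of that list.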

How the data were processed

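RNA of 5 mouse CAF cultures was sequenced, and the table that the authors deposited holds raw counts of each gene. The submitters' processing notes name mm10. Not given in the sources used here are the aligner, counter, annotation release and strand setting, which leaves exons that overlap another gene uncertain. They cover at most 6.07% of any collagen chain. All 44 members had the same coordinates in GENCODE M21.

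From the deposited counts, TMM factors (edgeR 4.0.16, R 4.3.3) were computed over all 5 libraries for CPM and within each pair for ratios. Log2 ratios had 0.5 counts added, and genes at 1 CPM in at least 1 of the 2 libraries were compared. Intervals of 95% were exact conditional binomial for ratios and exact Clopper-Pearson for shares, in Python 3.11.15 with numpy 2.4.6, pandas 2.3.3 and scipy 1.17.1. The script was tested on simulated data. Totals were 22961620 to 26596351 counts. No test between conditions was made with 1 library each.

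The members and lists were chosen with earlier results of these data known. Every chain at 10 CPM or more in any library was named with its values, with genes of the lists over 2-fold (up to 4) and the 3 highest of each list. Planned protein entries were not used here, and chains were translated from GENCODE M21 transcripts. As alternatives, scaling was by upper quartile, library total or DESeq2 1.42.0, 5 counts were added, the filter was dropped or set to 10 CPM, and whole intervals, other controls, totals and lengths were tried.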

Additional observations from a re-analysis of the deposited data

How the results depend on the processing

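With 1 library per condition no replicate could be left out. No paired analysis was possible because each group has 1 library and no result comes from a test. In the knockout, the median over members was 0.24 with library totals, -0.13 with a filter of 10 CPM and 0.79 with untreated PDX CAFs as the control, and the members over 2-fold higher numbered 5 without a filter, 1 with a filter of 10 CPM and 0 by whole intervals, with 3 lower without a filter. In the knockdown, 4 were over 2-fold higher and 4 lower without a filter, where small counts are added, and the median was 0.24 against untreated PDX CAFs. After control siRNA, 1 was higher with 5 counts added, 1 with a filter of 10 CPM and 1 by whole intervals, with 0 lower by whole intervals, and 4 were higher and 5 lower without a filter. Between origins the median was 0.65 with library totals and 0.60 without a filter, which gave 11 higher and 8 lower. Against protein-coding totals the collagen share was 3.51% in untreated PDX CAFs, 7.09% in Cre- control CAFs, 6.04% in myosin IIA KO CAFs, 3.85% with control siRNA and 4.20% with Fn1 siRNA. Beyond the members that a filter lets in, the cause was not tested. Of 464 ratios of single chains recomputed under 4 alternatives, 8 changed sign, all with a size of at most 0.067. Leaving out members with overlapping exons removed 0. The median of all genes moved by less than 0.1 under each scaling. Chains with few counts, such as Col23a1 and Col20a1, are limited by depth.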
